A study of Mus musculus with 13 samples.

Results

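The 9 genes described here encode transcription factors of microglia and macrophages: Spi1, Irf8, Irf5, Runx1, Cebpa, Mef2c, Sall1, Mitf and Bhlhe41. They were taken by symbol from the gene annotation deposited with the data, where each symbol occurred once, and they are 9 of the 55401 genes in the table. All 9 passed the filter on low counts that left 14985 genes for testing.

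The data were bulk RNA-seq libraries from the brains of male mice of the cuprizone model, in which chow containing the copper chelator cuprizone damages oligodendrocytes and demyelinates the brain. The labels give no strain and no genotype, and the paper describes the mice as wild type and of the C57BL/6J strain. CPZ mice (n = 4) ate chow with 0.3% cuprizone for 4 weeks and were killed at that time. RCV mice (n = 4) had the same 4 weeks of cuprizone followed by 2 weeks on normal chow. CTL mice (n = 5) received normal chow only, for 6 weeks. All mice were 6 to 8 weeks old according to the labels. The paper describes the mice as older, and the stage of the experiment to which the label age applies was not established here. CPZ mice were thus killed 2 weeks earlier than the other mice, and this difference cannot be told apart from the diet in either comparison of the CPZ group. Each library was made from a frozen hemisphere of 1 mouse, so the levels below are averages over all cells of that tissue. More cells of a type and more RNA of a gene per cell cannot be told apart in such libraries.

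Microglia are the resident macrophages of the brain parenchyma, and a small set of DNA-binding factors sets up and maintains them. PU.1, the product of Spi1, is an ETS factor needed for the whole myeloid lineage and acts with RUNX1, C/EBPα and the interferon regulatory factors IRF8 and IRF5. SALL1 and MEF2C are linked to the homeostatic state of microglia, although both genes are also used by other cells of the nervous system, MEF2C most of all by neurons. MITF controls lysosomal and osteoclast genes, and BHLHE41 is a transcriptional repressor known from the circadian clock and from microglia and other tissue macrophages.

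Promoter windows of 250 bases before to 50 bases after a transcription start were taken from RefSeq (GRCm38.p6). Of the members, 8 had at least 1 window, and Spi1 had none. Printed are windows of the 4 members whose CPZ and RCV libraries all lay above CTL in the comparisons below: Irf8, Irf5, Cebpa and Runx1. Runx1 is shown with both of its windows, which belong to starts that gene-level counts do not separate. Capitals mark matches to motifs of the factors themselves, on either strand.

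Irf8, window 1, chr8:120736108-120736407, plus strand: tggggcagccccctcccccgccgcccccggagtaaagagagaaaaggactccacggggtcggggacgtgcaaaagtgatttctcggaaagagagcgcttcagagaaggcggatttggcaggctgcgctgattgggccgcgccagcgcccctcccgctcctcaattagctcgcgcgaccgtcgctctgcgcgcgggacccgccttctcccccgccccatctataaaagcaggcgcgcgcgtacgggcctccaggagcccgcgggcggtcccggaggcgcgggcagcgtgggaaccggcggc
Irf5, chr6:29526375-29526674, plus strand: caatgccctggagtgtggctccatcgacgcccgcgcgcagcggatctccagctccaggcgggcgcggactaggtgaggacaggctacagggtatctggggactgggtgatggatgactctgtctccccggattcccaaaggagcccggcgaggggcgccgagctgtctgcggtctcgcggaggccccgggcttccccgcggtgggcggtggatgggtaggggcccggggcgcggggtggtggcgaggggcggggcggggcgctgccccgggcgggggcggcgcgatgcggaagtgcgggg
Cebpa, chr7:35119043-35119342, plus strand: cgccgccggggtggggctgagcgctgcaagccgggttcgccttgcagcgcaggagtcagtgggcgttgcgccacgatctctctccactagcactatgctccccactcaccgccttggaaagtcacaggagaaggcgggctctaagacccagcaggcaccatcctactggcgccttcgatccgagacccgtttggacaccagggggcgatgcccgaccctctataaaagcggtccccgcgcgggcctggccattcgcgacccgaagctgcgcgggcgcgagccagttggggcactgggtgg
Runx1, window 1, chr16:92826025-92826324, minus strand: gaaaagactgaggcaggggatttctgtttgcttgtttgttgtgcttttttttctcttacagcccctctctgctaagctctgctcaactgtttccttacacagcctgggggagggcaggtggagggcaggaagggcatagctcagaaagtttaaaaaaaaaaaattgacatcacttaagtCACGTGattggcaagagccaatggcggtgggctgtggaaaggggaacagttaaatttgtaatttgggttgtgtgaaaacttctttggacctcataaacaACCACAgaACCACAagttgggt
Runx1, window 2, chr16:92697280-92697579, minus strand: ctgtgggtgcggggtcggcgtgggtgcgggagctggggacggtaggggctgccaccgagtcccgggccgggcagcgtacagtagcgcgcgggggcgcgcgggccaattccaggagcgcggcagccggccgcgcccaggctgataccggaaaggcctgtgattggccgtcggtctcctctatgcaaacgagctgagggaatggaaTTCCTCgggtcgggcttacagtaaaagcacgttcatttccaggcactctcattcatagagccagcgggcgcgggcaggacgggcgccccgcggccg

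The motifs searched were the PU.1 core GAGGAA, the ETS-IRF composite (GGAA, any 2 bases, GAAA), the IRF pair (GAAA, any 2 bases, GAAA), the RUNX motif TGTGGT, the C/EBP motif (TTGC, any 2 bases, AA), the MEF2 motif (CTA, any 4 bases, TAG), the E-box CACGTG and the MITF motif TCATGTG. The composite and the IRF pair share their GAAA part. Window 1 of Runx1 held the RUNX motif at positions 29 and 37 after the start and an E-box 71 bases before it, so the gene's own motif lay in the transcribed part of the window. Window 2 of Runx1 held a PU.1 core 46 bases before the start. The printed windows of Irf8, Irf5 and Cebpa held no match. Among the windows not printed, Mitf held a C/EBP match in windows 1 and 2 and a RUNX match in window 1, Mef2c held a PU.1 core in windows 1 and 2, Bhlhe41 held an E-box, and window 2 of Irf8 and the 3 windows of Sall1 held none. Over all 32851 mouse windows of this length, the PU.1 core occurred in 28.3%, the RUNX motif in 16.8%, the C/EBP motif in 10.8%, the E-box in 7.15%, the MITF motif in 3.77%, the MEF2 motif in 3.69%, the IRF pair in 3.44% and the ETS-IRF composite in 2.72%. These motifs are short and common, and a match describes letters only. The printed windows of Irf8, Irf5 and Cebpa held 38, 35 and 29 CpG dinucleotides, against a median of 7 over all windows. Window 1 of Runx1, at the far 5′ end of the gene, held 2, and window 2 held 35.

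The depth behind these values was modest. The estimated counts of a library summed to between 4605100 and 8197289, and levels are given as CPM, counts per 1000000 counts of the library after TMM scaling. Spi1 had 5 to 26 counts and Runx1 7 to 12 counts in the CTL libraries, whereas Mef2c had at least 1436 in every library. The 15 general microglia markers (among them Cx3cr1, Csf1r, Aif1, Itgam, Ctss, C1qa, C1qb, C1qc, Fcer1g, Tyrobp, Ly86, Laptm5, Fcgr3 and Trem2) were present in all libraries, with a summed level of 417 to 509 CPM in CTL, 1588 to 3399 CPM in CPZ and 667 to 933 CPM in RCV. Markers of neurons, astrocytes and oligodendrocytes were present in all libraries too, as the labelled tissue implies, and all 10 mature oligodendrocyte markers were lower in CPZ than in CTL. Markers of some brain parts varied widely within groups. Striatal neuron markers summed to 368 to 2155 CPM in CTL, 555 to 1288 CPM in CPZ and 184 to 1772 CPM in RCV. Choroid plexus markers summed to 418 to 2750 CPM in CTL, 616 to 2347 CPM in CPZ and 12.5 to 1430 CPM in RCV. The part of such differences in the levels of the members was not tested.

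**Figure D1:**
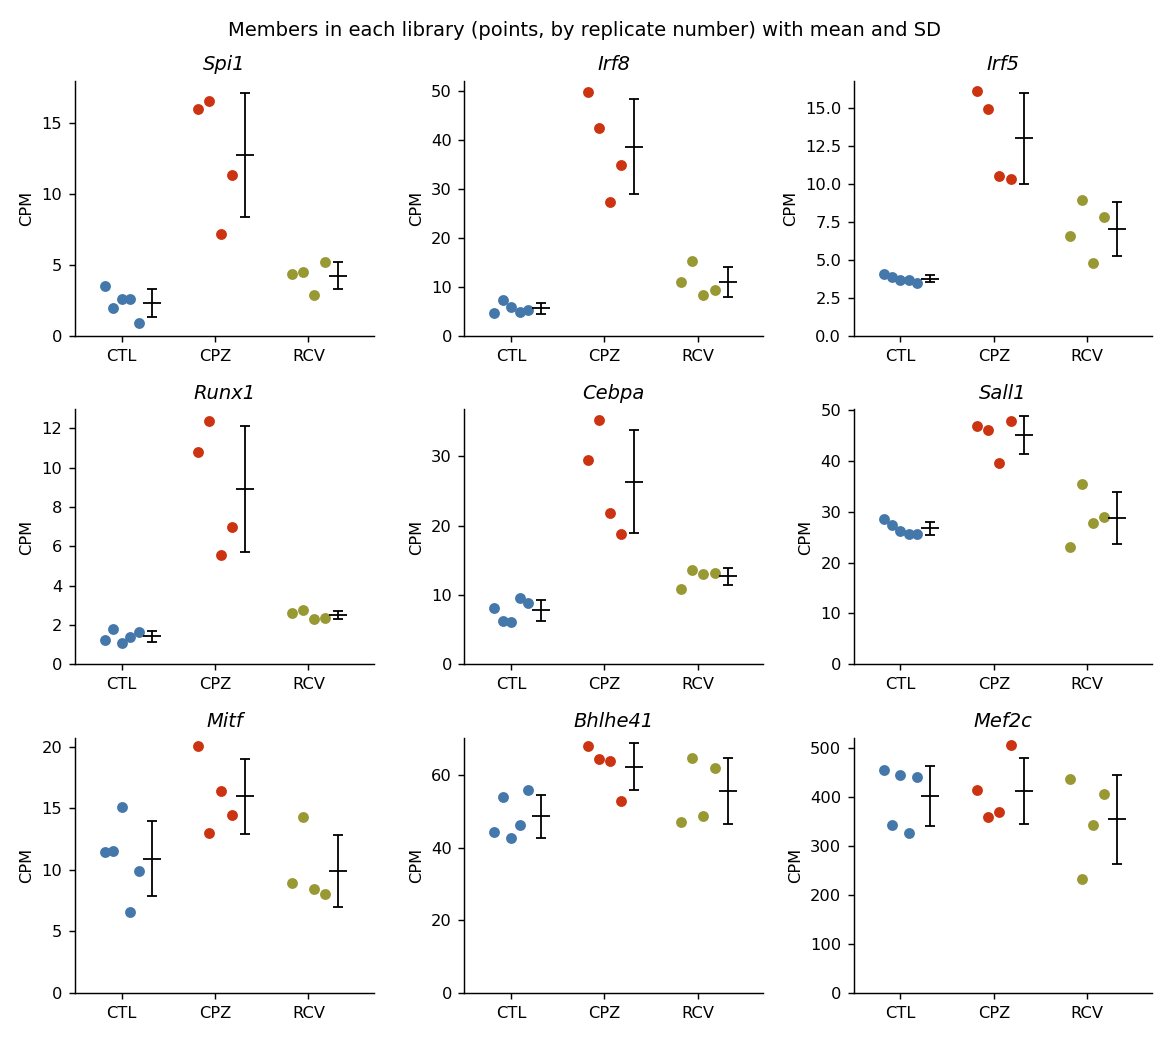
Level of each member in CPM (y axes, starting at 0) in the 5 CTL, 4 CPZ and 4 RCV libraries; points are libraries in order of replicate number, and the bar beside them is the mean with its SD. In the panels of Spi1, Irf8, Irf5, Runx1, Cebpa and Sall1 every CPZ point lies above every CTL and every RCV point, and in those of Mitf, Bhlhe41 and Mef2c the groups overlap.

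The first comparison, CPZ against CTL, asked how the factors stood at the end of the cuprizone diet. Of the 9 members, 6 were called higher in CPZ (edgeR's quasi-likelihood test, Benjamini-Hochberg adjusted p below 0.05) and none lower. Over all tested genes, 10.2% were called, 7.66% higher and 2.5% lower. The median log2 fold change of the members was 1.75, beside -0.02 over all tested genes. The libraries of the same 6 members did not overlap between the groups, which held, with CPZ higher, for 8.25% of all tested genes. The general microglia markers were higher as well, 15 of 15, with a median log2 fold change of 2.70. Both the members and the marker list were chosen with earlier results of these data known.

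Among the lineage factors, Spi1 (chr2:91082390-91115756, plus strand; positions are from GENCODE M21 on GRCm38) had 3.53, 1.95, 2.61, 2.599 and 0.917 CPM in CTL replicates 1 to 5. It had 16.0, 16.5, 7.21 and 11.4 CPM in CPZ replicates 1 to 4. The lowest CPZ library, replicate 3, still lay above the highest CTL library, replicate 1, and the spread within CPZ was wide. Spi1 rose 5.36-fold, with a 95% interval of 3.47 to 8.27 (log2 fold change 2.42 ± 0.29 SE, edgeR adjusted p = 3.44e-05). Runx1 (chr16:92601466-92826149, minus strand), which encodes the DNA-binding partner of CBFβ, had 1.22, 1.80, 1.08, 1.38 and 1.65 CPM in CTL and 10.8, 12.4, 5.55 and 6.97 CPM in CPZ. It rose 6.24-fold, with an interval of 4.28 to 9.10 (log2 fold change 2.64 ± 0.26 SE, edgeR adjusted p = 3.58e-06). Cebpa (chr7:35119293-35121928, plus strand), a driver of myeloid differentiation, had 8.16, 6.30, 6.15, 9.63 and 8.80 CPM in CTL and 29.4, 35.2, 21.8 and 18.9 CPM in CPZ. Its rise was smaller, 3.38-fold with an interval of 2.58 to 4.41 (log2 fold change 1.75 ± 0.18 SE, edgeR adjusted p = 7.55e-06). For all 3 genes, replicates 1 and 2 of the CPZ group stood above replicates 3 and 4, as they did in the mean log2-CPM of the general microglia markers (7.44 and 7.25 beside 6.28 and 6.67).

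Of the interferon regulatory factors, Irf8 (chr8:120736358-120756694, plus strand) showed the largest change of all members. The gene had 4.62, 7.35, 5.99, 4.89 and 5.32 CPM in CTL and 49.7, 42.4, 27.3 and 34.9 CPM in CPZ. It rose 6.83-fold, with an interval of 5.06 to 9.22 (log2 fold change 2.77 ± 0.20 SE, edgeR adjusted p = 7.21e-07). Irf8 lies inside a long read-through gene model on the same strand, Gm20388, named Galnt2l in the deposited annotation, and the authors' counting may have divided reads between the pair. That model had 0 to 259 estimated counts per CTL library, 0.210 to 61.9 per CPZ library and 0 to 9.07 per RCV library. Irf8 itself had 29 to 49 counts per CTL library, fewer than the model had in most of them. The model's log2 fold change was -2.01 ± 0.93 for CPZ over CTL (SE, edgeR adjusted p = 0.238). For RCV over CTL it was -5.65 ± 1.49 (SE, edgeR adjusted p = 0.256). Both ran opposite to the change of Irf8, and the part of the model in the level and rise of Irf8 was not tested. Irf5 (chr6:29526625-29541871, plus strand), which relays signals of Toll-like receptors to inflammatory genes, had 4.08, 3.90, 3.69, 3.67 and 3.48 CPM in CTL. On the CPM scale this was the tightest control group of the low-level members. On the TPM scale it was not, and the CTL libraries of Irf5 ran from 3.55 to 6.8 TPM. Its CPZ libraries had 16.1, 14.95, 10.5 and 10.3 CPM, all well above. Irf5 rose 3.43-fold, with an interval of 2.60 to 4.52 (log2 fold change 1.78 ± 0.19 SE, edgeR adjusted p = 7.95e-06). The end of Irf5 overlaps the end of Tnpo3 on the other strand, and the use of strand in the counting is not given in the sources used here. Tnpo3 itself had a log2 fold change of -0.01 ± 0.05 (SE).

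The factors linked to homeostatic microglia differed from each other. Sall1 (chr8:89027235-89044162, minus strand) encodes a zinc finger repressor that among brain macrophages is typical of microglia. It had 28.5, 27.5, 26.3, 25.5 and 25.7 CPM in CTL and 46.8, 45.9, 39.5 and 47.8 CPM in CPZ. Both groups were tight and did not overlap. Sall1 rose 1.68-fold, with an interval of 1.46 to 1.95 (log2 fold change 0.75 ± 0.10 SE, edgeR adjusted p = 6.62e-05). Mef2c (chr13:83504034-83667080, plus strand) was the most abundant member in every library. Its CTL libraries had 455, 344, 446, 328 and 441 CPM and its CPZ libraries 416, 360.03, 370.01 and 507 CPM, and the groups overlapped, with only CPZ replicate 4 outside the CTL range. The log2 fold change was 0.04 ± 0.18 (SE), with an interval of -0.34 to 0.42 (edgeR adjusted p = 0.943). None of the 10 cortical excitatory neuron markers was called in this comparison. CPZ replicate 4, the highest in Mef2c of all libraries, also had the highest cortical marker score (the mean log2-CPM over those markers), 6.80, and RCV replicate 2, the lowest in Mef2c, had the lowest score, 6.03. The part of neurons in the level of Mef2c was not tested.

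The remaining members are basic helix-loop-helix factors. Mitf (chr6:97807052-98021349, plus strand) had 11.4, 11.6, 15.1, 6.57 and 9.90 CPM in CTL and 20.02, 13.01, 16.4 and 14.5 CPM in CPZ, and 2 of the 4 CPZ libraries lay below the highest CTL library. The log2 fold change was 0.54 ± 0.21 (SE), which did not pass the test (edgeR adjusted p = 0.132). Melanocyte markers, which would mark pigment cells that also use Mitf, summed to 0.461 to 1.68 CPM in CTL, 1.42 to 2.80 CPM in CPZ and 0.867 to 1.91 CPM in RCV. None of the 5 passed the filter, Mlana was at 0 in every library, and their part in the level of Mitf was not tested. Bhlhe41 (chr6:145858243-145865558, minus strand) had 44.2, 53.9, 42.7, 46.3 and 55.7 CPM in CTL and 68.0, 64.4, 63.8 and 52.8 CPM in CPZ. Only CPZ replicate 4 lay within the CTL range. Its log2 fold change of 0.36 ± 0.11 (SE) fell just short of the threshold (edgeR adjusted p = 0.0524). It passed in 12 of 23 alternative analyses, DESeq2 (adjusted p = 0.0412) and limma-voom (adjusted p = 0.0483) among them, and the adjusted p ranged from 0.0194 to 0.591 over all of them.

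**Figure D2:**
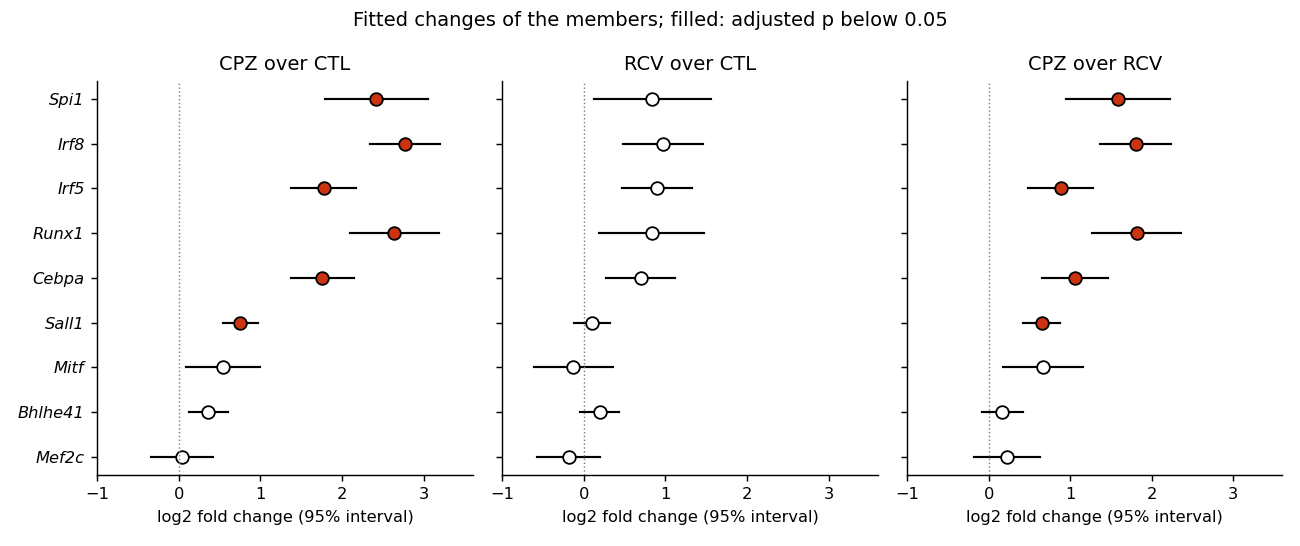
Log2 fold change of each member (x axes) with its 95% interval in the 3 comparisons; filled points have an edgeR adjusted p below 0.05. Filled points from 0.75 for Sall1 to 2.77 for Irf8 stand in the CPZ over CTL panel, none in the RCV over CTL panel, where the points run from -0.18 to 0.97, and from 0.65 to 1.81 in the CPZ over RCV panel.

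The second comparison, RCV against CTL, asked what was left after 2 weeks of normal chow. It shares the CTL libraries with the first comparison. No member was called (edgeR), where 0.374% of all tested genes were called, 0.36% higher and 0.0133% lower. At an unadjusted p below 0.05, 5 members were higher (Irf5, Irf8, Cebpa, Runx1 and Spi1), beside 4.03% of all tested genes. DESeq2 called 2 members, Irf5 (adjusted p = 0.0397) and Irf8 (adjusted p = 0.00998), beside 0.658% of its genes, and limma-voom called none, beside 0.0801%. The RCV libraries of 4 members (Irf8, Irf5, Runx1 and Cebpa) lay entirely above their CTL libraries, which held for 2.21% of all tested genes.

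The level of Irf8 in RCV was 11.0, 15.2, 8.28 and 9.32 CPM in replicates 1 to 4, all above the highest CTL value of 7.35 CPM. Its log2 fold change over CTL was 0.97 ± 0.23 (SE, edgeR adjusted p = 0.116). Irf5 had 6.60, 8.91, 4.81 and 7.81 CPM, with a log2 fold change of 0.90 ± 0.20 (SE, edgeR adjusted p = 0.0872). Both lay about 1.9-fold above CTL. Runx1 stood at 2.64, 2.75, 2.31 and 2.39 CPM in RCV, close together and above the highest CTL value of 1.80 CPM, with a log2 fold change of 0.83 ± 0.30 (SE, edgeR adjusted p = 0.534). Cebpa had 10.8, 13.6, 13.1 and 13.2 CPM, with a log2 fold change of 0.70 ± 0.20 (SE, edgeR adjusted p = 0.243). For Spi1 the RCV values of 4.40, 4.54, 2.89 and 5.20 CPM overlapped with CTL through replicate 3 (log2 fold change 0.84 ± 0.34 SE, edgeR adjusted p = 0.647).

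The other members stood near CTL. Sall1 had 23.0, 35.3, 27.7 and 28.8 CPM in RCV, with replicate 1 below and replicates 2 and 4 above every CTL library, and a log2 fold change of 0.10 ± 0.10 (SE). Bhlhe41 had 46.9, 64.6, 48.7 and 61.8 CPM (log2 fold change 0.19 ± 0.11 SE), Mitf had 8.94, 14.3, 8.47 and 8.02 CPM (-0.13 ± 0.23 SE), and Mef2c had 437, 233, 343 and 406 CPM (-0.18 ± 0.18 SE). The 95% intervals of these 4 genes ran from at lowest -0.61 for Mitf to at highest 0.43 for Bhlhe41. The general microglia markers had a median log2 fold change of 1.07, with 1 of 15 called although the RCV libraries of all 15 lay above CTL.

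The third comparison, CPZ against RCV, gave the difference between the end of the diet and the recovery directly. The CPZ libraries are those of the first comparison and the RCV libraries those of the second. Of the members, 6 were called higher in CPZ (edgeR) and none lower, beside 7.01% of all tested genes, 5.13% higher and 1.88% lower. They were the 6 members called between CPZ and CTL, and their libraries did not overlap, which held, with CPZ higher, for 8.26% of all tested genes. The median log2 fold change of the members was 0.88, beside -0.01 over all genes. Runx1 and Irf8 differed most, by log2 fold changes of 1.81 ± 0.26 and 1.80 ± 0.20 (SE, edgeR adjusted p = 0.000514 and 0.000251). Spi1 followed with 1.58 ± 0.30 and Cebpa with 1.06 ± 0.19 (SE). Irf5 differed by 0.88 ± 0.19 (SE, edgeR adjusted p = 0.00894) and Sall1 by 0.65 ± 0.11 (SE, edgeR adjusted p = 0.00134). On the TPM scale Irf5 was not called (limma adjusted p = 0.135 to 0.219), and Spi1 was not called with a pseudocount of 0.1 or without a filter (limma adjusted p = 0.0566 and 0.0611). Mitf, with 0.67 ± 0.23 (SE, edgeR adjusted p = 0.105), was called without CTL replicate 4 (edgeR adjusted p = 0.0472). It was also called without RCV replicate 2, with a log2 fold change of 0.90 (edgeR adjusted p = 0.0245). Mef2c (0.22 ± 0.19) and Bhlhe41 (0.17 ± 0.12 SE) were not called.

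For the 6 members called between CPZ and CTL, the part of the CPZ change that remained in a RCV mouse was taken as its log2-CPM above the CTL mean divided by the CPZ mean above the CTL mean. This share was 0.487 ± 0.218 for Irf5, 0.411 ± 0.086 for Cebpa, 0.369 ± 0.145 for Spi1, 0.335 ± 0.138 for Irf8, 0.306 ± 0.045 for Runx1 and 0.12 ± 0.337 for Sall1 (SD, n = 4). The score of the general microglia markers kept 0.364 ± 0.079 of its change. The values of single mice overlapped between most of these genes, and Sall1 ran from -0.282 in replicate 1 to 0.538 in replicate 2. RCV replicate 3 was lowest for Spi1, Irf8, Irf5 and Runx1 and for the microglia markers. The differences between shares were not tested.

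**Figure D3:**
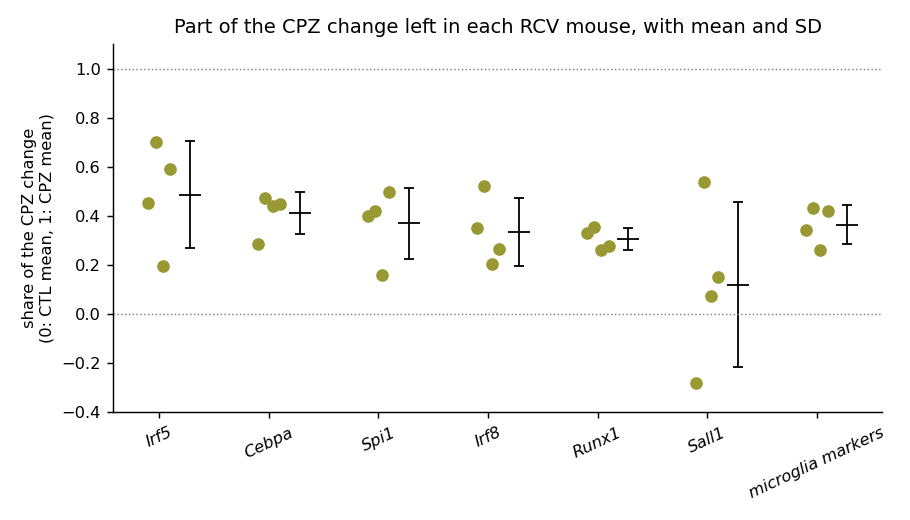
Share of the CPZ change that remained in each RCV mouse (y axis; 0 is the CTL mean and 1 the CPZ mean) for the 6 members called between CPZ and CTL and for the score of 15 general microglia markers; points are RCV replicates 1 to 4, with mean and SD beside them. The means run from 0.12 for Sall1, with the widest scatter, to 0.487 for Irf5, and the marker score stands at 0.364.

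Since the microglia markers rose in CPZ, each member was also set against them in the same mouse, as its log2-CPM minus the mean log2-CPM of the markers. This score was 4.27 ± 0.11 in CTL, 6.91 ± 0.53 in CPZ and 5.23 ± 0.21 in RCV (SD, n = 5, 4 and 4). Between CPZ and CTL, Irf8 changed by 0.12, Runx1 by -0.04 and Spi1 by -0.12 relative to the markers (exact two-sided permutation test over mice, p = 0.349, 0.794 and 0.778), with CPZ and CTL mice overlapping. Irf5 was lower relative to the markers by -0.88 and Cebpa by -0.90, and no CPZ mouse overlapped with a CTL mouse (exact permutation p = 0.0159 for each, the smallest that 4 against 5 mice allow). Sall1 stood at -1.89, Mitf at -2.05, Bhlhe41 at -2.28 and Mef2c at -2.60, each with the same p. Of the 9 members, 6 were thus lower and none higher. The score is a mean over markers that differed from each other. Their log2 fold changes for CPZ over CTL ran from 1.72 (Cx3cr1) to 3.68, with 1.83 for Csf1r. Irf5 (1.78) and Cebpa (1.75) lay below the mean of the markers but within their range. All permutation p-values given relative to markers, general or homeostatic, are unadjusted over 54 tests. The permutation test was run on the members only, so no share over all genes stands beside its counts. Shares given with these comparisons belong to the edgeR fits.

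The count of 6 lower members was the same with edgeR when the marker score was put into the offset of the fit, but there 98.1% of all tested genes were called lower, and the median over all genes was -2.60. In that fit Sall1 (-1.84), Mitf (-2.05) and Bhlhe41 (-2.22) were lower than the markers while lying above the median of all genes, and Mef2c (-2.54) lay close to it. The p-values of this fit are too small, because it counts the spread of the score, which is shared by all genes, as if it were independent for each gene. Between RCV and CTL, the permutation test found Mef2c (-1.17), Mitf (-1.09), Sall1 (-0.87) and Bhlhe41 (-0.77) lower (exact permutation p = 0.0159 each, and 0.0317 for Mitf), and the 5 other members between -0.24 and 0.01. The edgeR fit called the same 4 members, beside 90.5% of all genes called lower. Between CPZ and RCV, 5 members were lower by the permutation test (Bhlhe41, Mef2c, Sall1, Irf5 and Cebpa, exact permutation p = 0.0286 each, the smallest that 4 against 4 mice allow), and 6 by edgeR, which added Mitf, beside 96% of all genes called lower.

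The values of the lineage and interferon factors changed with the choice of markers. The list of 12 homeostatic microglia markers (among them Tmem119, P2ry12, P2ry13, Siglech, Gpr34, Cx3cr1, Olfml3, Fcrls, Slc2a5, Selplg and Tgfbr1) shares 2 genes with the general list and rose less, from a score of 4.13 ± 0.12 in CTL to 5.77 ± 0.44 in CPZ, and to 4.47 ± 0.09 in RCV (SD, n = 5, 4 and 4). Relative to it, Irf8 was higher in CPZ than in CTL by 1.12, Runx1 by 0.96 and Spi1 by 0.88 (exact permutation p = 0.0159, 0.0159 and 0.0317). Irf5 (0.12) and Cebpa (0.09) did not pass (exact permutation p = 0.381 and 0.619). Sall1, which is tied to the homeostatic state, was lower than these markers too, by -0.89, as were Mitf by -1.06, Bhlhe41 by -1.28 and Mef2c by -1.60 (exact permutation p = 0.0159, and 0.0317 for Mitf). The edgeR fit with these markers called the same 3 members higher and the same 4 lower, beside 1.25% of all tested genes called higher and 95.3% called lower. The lower calls of Sall1, Mitf, Bhlhe41 and Mef2c against either list thus match what nearly all genes showed. Between RCV and CTL, Irf8 (0.60), Irf5 (0.53), Runx1 (0.51) and Cebpa (0.38) were higher than the homeostatic markers by the permutation test (exact permutation p = 0.0317, 0.0317, 0.0159 and 0.0476) and Mef2c lower (-0.55, exact permutation p = 0.0476), whereas the edgeR fit called none, beside 0.794% of all tested genes. Between CPZ and RCV, Runx1 was higher (0.46) and Bhlhe41 lower (-1.13, exact permutation p = 0.0286 each), and the other 7 members did not pass. The edgeR fit differed there: it called Irf8 higher (0.48, adjusted p = 0.0434) and Bhlhe41, Mef2c, Mitf and Sall1 lower, beside 0.427% of all tested genes called higher and 93% called lower, and it did not call Runx1 (0.45, adjusted p = 0.18).

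**Figure D4:**
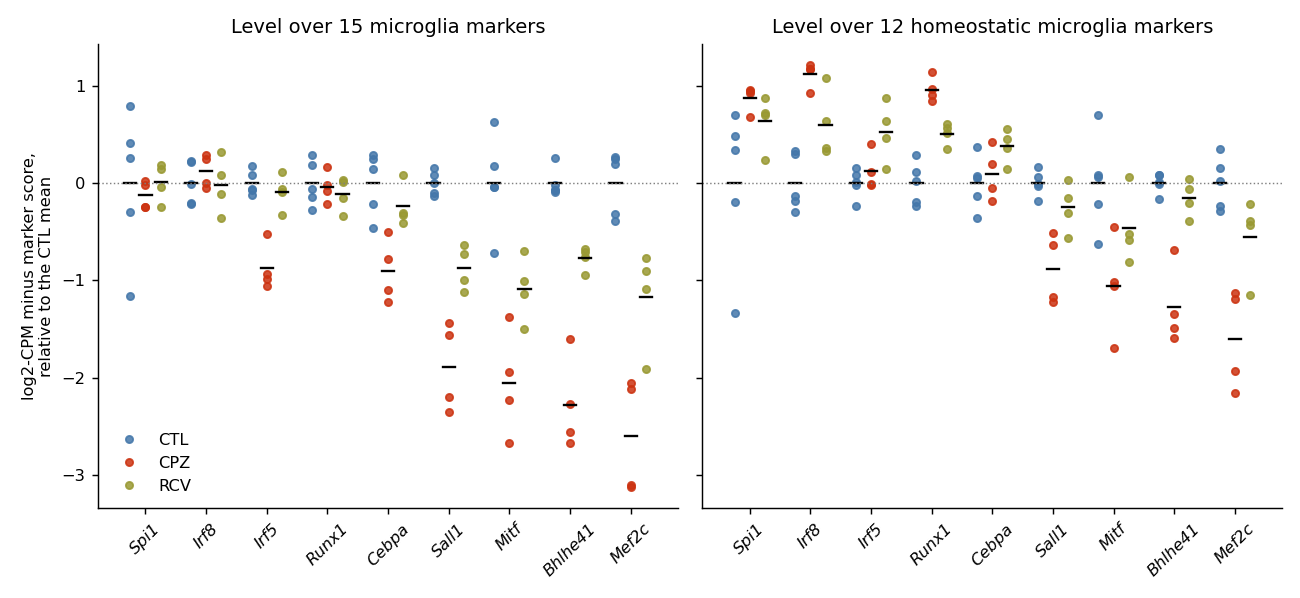
Log2-CPM of each member minus the marker score of the same mouse, set to 0 at the CTL mean (y axis), for 15 general microglia markers (left) and 12 homeostatic microglia markers (right); points are mice and bars are group means. On the left the CPZ means of Irf8, Runx1 and Spi1 lie between -0.12 and 0.12, and on the right between 0.88 and 1.12; Sall1, Mitf, Bhlhe41 and Mef2c lie below 0 in both panels.

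Levels were compared between genes on the TPM scale, which is per length. In CTL the mean TPM was 237 ± 43.4 for Mef2c, 24.1 ± 5.04 for Bhlhe41, 10.5 ± 0.390 for Sall1, 6.84 ± 2.83 for Mitf, 6.71 ± 1.56 for Cebpa, 4.64 ± 1.08 for Irf8, 4.43 ± 1.35 for Irf5, 3.31 ± 1.17 for Spi1 and 0.544 ± 0.140 for Runx1 (SD, n = 5). Neighbours from Mitf down to Spi1 overlapped and did not differ beyond their spread, and the other neighbours did not overlap. In CPZ the order changed. Mef2c (230.4 ± 24.8) and Bhlhe41 (29.7 ± 4.99) came first, followed by Irf8 (28.8 ± 6.87), Cebpa (22.0 ± 6.67), Spi1 (20.04 ± 6.04), Sall1 (17.3 ± 1.31), Irf5 (13.3 ± 3.75), Mitf (9.35 ± 1.22) and Runx1 (3.64 ± 1.48 SD, n = 4), and the neighbours from Bhlhe41 to Mitf overlapped. Irf8 thus moved from the sixth place to the third. In RCV, Sall1 (11.1 ± 1.94), Cebpa (10.5 ± 1.17), Irf8 (9.40 ± 3.29), Spi1 (7.99 ± 2.84), Irf5 (7.58 ± 2.51) and Mitf (6.49 ± 2.55) overlapped with their neighbours, below Mef2c (201 ± 50.03) and Bhlhe41 (24.8 ± 6.13) and above Runx1 (0.980 ± 0.0497 SD, n = 4).

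The tested genes with the profile most like each called member were found by the root mean square difference of log2-CPM over the 13 libraries, each gene centred on its own mean, among 14143 genes. For Spi1 they were Ifi30, Lcp1 and Abi3 (difference 0.302 to 0.311), and for Irf8 they were Ctsz, Lgals3bp and C1qc (0.187 to 0.207). Runx1 was matched most closely by Laptm5, Anxa3 and Ncf1 (0.119 to 0.145), Irf5 by H2-K1, Csf1r and H2-D1 (0.174 to 0.197) and Cebpa by Lair1, Renbp and Sh3bp2 (0.206 to 0.238). C1qc, Csf1r and Laptm5 belong to the general microglia markers. The genes nearest to Sall1 were Cttnbp2nl, Wasf2 and Nfkb1 (0.0714 to 0.135). None of the genes nearest to Sall1, Spi1 or Cebpa is in that list.

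Related factors were followed as lists of 72 genes without the members, of which 60 were tested. The lists were drawn from general knowledge, but with earlier results of these data known. Between CPZ and CTL, 22 were called higher and none lower (edgeR), with a median log2 fold change of 0.22. Over all tested genes, 7.66% were called higher there. Between CPZ and RCV, 14 were called, all higher in CPZ, beside 5.13% of all tested genes called higher. Of the ETS family, to which PU.1 belongs, 4 of 16 tested genes rose in CPZ, led by Elf4 (log2 fold change 1.87 ± 0.21), Fli1 (1.36 ± 0.17) and Elk3 (0.86 ± 0.15 SE). Spi1 exceeded each of them in point estimate. Of the IRF family, 2 of 5 tested genes rose, Irf7, a mediator of type I interferon induction (2.03 ± 0.24), and Irf9, a subunit of the interferon-activated ISGF3 complex (0.78 ± 0.13 SE).

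Around the RUNX and C/EBP members the related genes varied. Cbfb, the partner of RUNX1, rose by 0.40 ± 0.12 (SE, edgeR adjusted p = 0.0369), Runx2 had a log2 fold change of 0.22 ± 0.22 (SE), and Runx3 was too scarce to be tested. Of the C/EBP family, Cebpd (2.22 ± 0.39), Cebpg (0.87 ± 0.09) and Ddit3, a factor of the integrated stress response (0.82 ± 0.14 SE), rose, and Cebpb, with 0.65 ± 0.22 (SE), did not pass (edgeR adjusted p = 0.0735). No relative of the other members was called. Mef2a had a log2 fold change of 0.18 ± 0.12 and Mef2d of -0.12 ± 0.07 (SE). The relatives of Mitf, Tfeb (-0.06 ± 0.14) and Tfe3 (0.20 ± 0.08 SE), which direct lysosome genes, were not called, and Tfec was not tested. Bhlhe40, the closest relative of Bhlhe41, had 0.15 ± 0.08, Sall2 -0.03 ± 0.08 and Sall3 0.65 ± 0.22 (SE). Of 23 other myeloid factors tested, 12 rose, among them Lyl1 (2.52 ± 0.38) and Ikzf1 (2.17 ± 0.29 SE), and Maf rose by 0.56 ± 0.12 (SE).

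**Figure D5:**
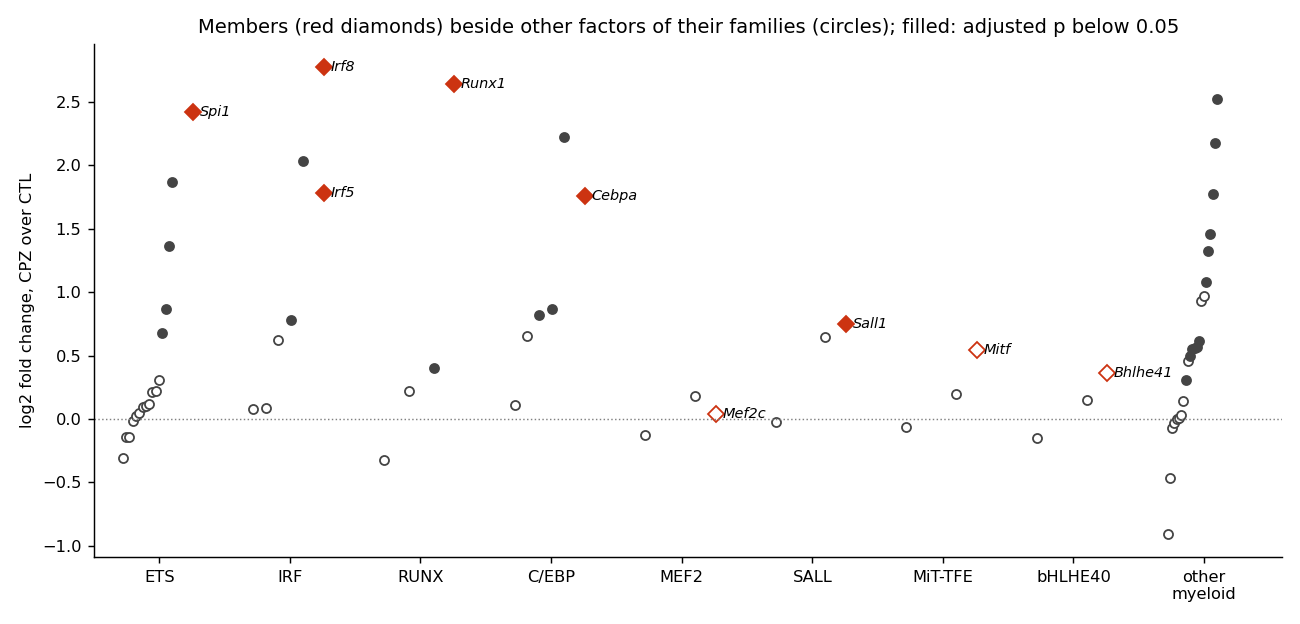
Log2 fold change of CPZ over CTL (y axis) for the members (red diamonds) and for 60 tested related factors (circles) by family (x axis); filled symbols have an edgeR adjusted p below 0.05. Irf8 (2.77), Runx1 (2.64) and Spi1 (2.42) top their families, Cebpd (2.22) lies above Cebpa (1.75), and Mef2c (0.04) lies between its relatives Mef2a (0.18) and Mef2d (-0.12), none of which passed the test.

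Genes known to be controlled by the members were read from 3 short lists, which were also chosen with earlier results of these data known. Between CPZ and CTL, 7.66% of all tested genes were called higher (edgeR). Of 10 genes under PU.1, 9 were tested and all 9 rose in CPZ, led by Ptprc (CD45, log2 fold change 3.05 ± 0.20), Fcgr1 (3.00 ± 0.22) and the lipopolysaccharide co-receptor Cd14 (2.70 ± 0.25 SE). Tlr4 of this list had 3 to 9 counts in CTL and 3 to 13 in RCV libraries, against 16 to 28 in CPZ libraries. Tlr4 thus passed the filter through the CPZ group, and the count of 9 of 9 depends in part on the filter. Between RCV and CTL, Ptprc (1.57 ± 0.22) and Cd14 (1.51 ± 0.28 SE) were still called (edgeR adjusted p = 0.00511 and 0.0284). Of 8 genes under IRF8 and IRF5, 4 were tested and all 4 rose in CPZ, led by the chemokine Cxcl10 (4.19 ± 0.41), Csf2rb (3.48 ± 0.33) and Aif1, which encodes IBA1 (2.19 ± 0.21 SE), and none was called between RCV and CTL. Cxcl10 had 0 to 5 counts in CTL and 6 to 14 in RCV libraries, against 38 to 71 in CPZ libraries. Its place among the tested genes thus rests on the CPZ group, and the count of 4 of 4 depends in part on the filter. The cytokine genes Il1b, Tnf, Il6 and Ifnb1 of that list were at 10 counts or fewer in every CTL and CPZ library and were not tested. Of 6 tested genes under MITF and its relatives, Gpnmb (4.69 ± 0.35) and Lamp1 (0.39 ± 0.07 SE) rose, and the other 4 were not called. Csf1r, Itgam and Aif1 of these lists are also general microglia markers, so the lists are not independent of the marker score.

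Other cells that use these factors were looked for in the same libraries. Blood monocyte and neutrophil markers (Ly6c2, Ccr2, Plac8, Chil3, S100a8, S100a9, Ly6g, Camp and Ngp) summed to between 0.144 and 1.42 CPM in the CPZ libraries, and none of the 9 passed the filter. In CTL they summed to a median of 0.917 CPM, with 11.9 CPM in the highest library, and in RCV to a median of 1.79 CPM, with 15.5 CPM in the highest library, and their part in the levels of the members was not tested. Ly6g and Camp were at 0 in all CTL and CPZ libraries. Of 8 border macrophage markers 3 were tested, and Stab1 rose in CPZ (1.69 ± 0.16 SE), while Mrc1 (0.71 ± 0.35 SE) and F13a1 (0.08 ± 0.36 SE) did not pass. The summed level of that list was 17.1 to 26.6 CPM in CTL, 41.7 to 68.3 CPM in CPZ and 21.7 to 28.8 CPM in RCV. Most of it was Stab1, and without Stab1 the other 7 markers summed to 4.21 to 10.8 CPM in CTL, 6.84 to 11.8 CPM in CPZ and 5.67 to 12.4 CPM in RCV, with overlap. The part of border macrophages in the members' levels was not tested. Of 10 lymphocyte markers, 2 were tested, Cd4 and Ebf1, and neither was called. Cd4 varied widely within groups, with 13 to 148 counts in CTL, 32 to 102 in CPZ and 0 to 94 in RCV libraries. The other lymphocyte markers did not pass the filter, so the list gives no result on lymphocytes as a whole. None of the 10 endothelial and pericyte markers was called between CPZ and CTL, and 4 of 8 astrocyte markers were higher. The part of astrocytes in the change of any member was not tested.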

How the data were processed

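The authors used a Kapa mRNA HyperPrep Kit for the libraries and deposited an estimated count per gene and library, not scaled to library size, a TPM value and a gene annotation with the length of each gene. The submitters' processing notes name STAR, RSEM and mm10, and the paper the RNASequest pipeline, and the sources used here give neither versions nor strand settings. The labels give 5 CTL, 4 CPZ and 4 RCV libraries, 1 per mouse, and all were used, although the label protocols mention 4, 3 and 3 mice. "Veh" opens the titles of the RCV libraries, whose treatment label nevertheless reads as recovery. No library was a copy of another: chi-square per gene was 4.49 to 17.8 in the 22 pairs within groups.

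Estimated counts were rounded, filtered with filterByExpr of edgeR 4.0.16, normalised by TMM, and all 13 libraries went into 1 robust quasi-likelihood fit without covariates and its F test, after a check on simulated counts. Benjamini-Hochberg adjustment ran over all 14985 genes (threshold 0.05), and p-values measure the spread between these mice. SE is the absolute log2 fold change divided by the square root of F. Log2-CPM used a prior count of 2, and none for the members set against markers. The exact permutation tests over mice were chosen after seeing the data, when the fit with the marker score in its offset returned 149850 residual degrees of freedom for 13 libraries. Alternatives were DESeq2 1.42.0 and its size factors, limma-voom (limma 3.58.1), limma with trend on log2(TPM + 1) or log2(TPM + 0.1) for genes reaching a TPM of 1 in 4 libraries, the former also unfiltered, no count filter, at least 10 counts in every library, only the 2 groups compared, the replicate number as a block, other marker scores and each library left out. Software was R 4.3.3, and Python 3.11.15 with scipy 1.17.1 and matplotlib 3.10.9.

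Of the gene identifiers, 54349 (98.1%) matched GENCODE M21. Named are all members, up to 3 called genes with the largest change of each list, a fixed set of relatives of the members and the 3 nearest profiles of each called member. Outside this rule the text names Sall2, Sall3, Tlr4, 4 cytokine genes, overlapping genes and the genes that make up marker lists. Some genes of the lists entered the counts and scores but are not reported here. The members and lists were chosen with earlier results of these data known. Replicate numbers were not used as pairs in the main fit. Deviations of same-numbered libraries correlated between -0.199 and 0.136 over 12 pairs, which gave no sign of pairing by number but cannot exclude it.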

Additional observations from a re-analysis of the deposited data

How the results depend on the processing

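Between CPZ and CTL, Spi1, Irf8, Irf5, Runx1, Cebpa and Sall1 were called in every alternative that tested them; Spi1 and Runx1 were not tested with at least 10 counts in every library. The number of called members was 5 to 7. Leaving out a library gave 6 to 7 called members (Bhlhe41 joined without CTL replicate 2 or 5, CPZ replicate 4 or RCV replicate 1, 2 or 3), and Mef2c changed sign (-0.077 to 0.10), as it did on the TPM scale (-0.029 with either pseudocount and without a filter). Between RCV and CTL, 2 members were called by DESeq2, 1 without a filter (Irf5), and 0 to 1 when a library was left out (Irf8 without CPZ replicate 3, Irf5 without RCV replicate 3). All genes called there numbered 56 by edgeR, 123 by DESeq2 and 12 by limma-voom. Leaving out a library moved Mitf from -0.36 to 0.017 and Sall1 from -0.019 to 0.20. The share remaining for Runx1 was 0.237 on log2(TPM + 1). The replicate block called 7, 0 and 6 members in the 3 comparisons and added Bhlhe41 to the first (adjusted p = 0.037). It changed no other call, and 1 of 12 libraries correlated best with its own number. The cause of these differences was not tested.

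Relative to the general markers, 6, 4 and 6 members were called, and leaving out a library gave 6, 4 and 5 to 6 (Cebpa was lost without CPZ replicate 4 or RCV replicate 3). With the homeostatic markers edgeR called 7, 0 and 5 members in the 3 comparisons and the permutation test 7, 5 and 2. Under them the fitted values changed sign to 0.72 (Spi1), 0.12 (Irf5), 0.95 (Runx1) and 0.090 (Cebpa) for CPZ over CTL, and to 0.49 (Spi1), 0.62 (Irf8), 0.55 (Irf5), 0.50 (Runx1) and 0.36 (Cebpa) for RCV over CTL. Spi1 changed to 0.23 for CPZ over RCV. The differences behind the permutation tests were 0.88, 0.12, 0.96 and 0.094 in the same order of genes, then 0.63, 0.60, 0.53, 0.51 and 0.38, and 0.25 for Spi1. With the general markers Spi1 had 0.013 in RCV over CTL. Values near 0 also changed sign with the median over the markers (Runx1 0.070 in CPZ over CTL, Irf8 0.00664 in RCV over CTL), with the replicate block (Runx1 0.025) and when a library was left out (Runx1 -0.12 to 0.025, and in RCV over CTL Spi1 -0.31 to 0.10 and Irf8 -0.13 to 0.10). Spi1, Runx1 and Irf5 had 30 counts or fewer in every CTL library.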
